A study of Mus musculus with 47 samples.

Results

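Valine and isoleucine share their opening steps of breakdown and then pass through separate mitochondrial enzymes that meet again at propionyl-CoA. The genes described here are 10 genes of those separate stretches, among 55416 gene identifiers in the tables of counts. They were chosen by name from what the enzymes do: 4 valine steps (Acad8, Hibch, Hibadh and Aldh6a1) and 6 isoleucine or propionyl steps (Acadsb, Hsd17b10, Acat1, Pcca, Pccb and Mmut). All 10 were found in the male and in the female table, 9 by their own symbol and Mmut under its older symbol Mut, and all 10 passed the filter on low counts in each sex.

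The libraries are RNA-seq of 3xTg mouse brains, a model of Alzheimer's disease that carries mutant human APP and tau transgenes and a mutant presenilin gene. Every group shared this genotype, so no non-transgenic library enters the values below. Males and females were 6 months old when placed on an amino acid-defined diet, complete in Control and cut in isoleucine for IleR, in leucine for LeuR and in valine for ValR, and brains were taken after 9 months. In males 4 Control, 3 IleR, 3 LeuR and 4 ValR libraries were analysed, and in females 6 Control, 5 IleR, 6 LeuR and 6 ValR libraries. The labels list 10 further male libraries, which are not analysed here. A library is called below by its diet and the number in its label, such as Control 4.

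The enzymes work in a fixed order. After transamination and oxidative decarboxylation, each branched-chain ketoacid becomes an acyl-CoA, which is dehydrogenated, hydrated and split, in part by enzymes particular to that amino acid and in part by enzymes shared with fat oxidation. Valine is unusual in that its CoA is removed midway, so that a free hydroxy acid, 3-hydroxyisobutyrate, leaves the enzyme and can leave the cell. Isoleucine is split into acetyl-CoA and propionyl-CoA, and the propionyl-CoA of both routes is carboxylated and rearranged to succinyl-CoA, which enters the citric acid cycle. In the brain, glial cells and in particular astrocytes are known for oxidizing branched-chain amino acids.

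The valine steps lie on separate chromosomes (build GRCm38, GENCODE M21). Acad8, at chr9:26974135-26999566 on the minus strand, encodes isobutyryl-CoA dehydrogenase, which opens the valine branch. Hibch, at chr1:52844929-52920986 on the plus strand, encodes the hydrolase that frees 3-hydroxyisobutyrate from its CoA. Hibadh, at chr6:52546228-52640389 on the minus strand, encodes the dehydrogenase that oxidizes 3-hydroxyisobutyrate. Aldh6a1, at chr12:84430717-84451004 on the minus strand, encodes methylmalonate semialdehyde dehydrogenase, which closes the branch at propionyl-CoA.

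The isoleucine steps begin with Acadsb, at chr7:131410601-131448944 on the plus strand, which encodes the short/branched-chain acyl-CoA dehydrogenase. Hsd17b10, at chrX:152001845-152004442 on the plus strand, encodes the hydroxyacyl-CoA dehydrogenase of this route, a protein that is also a part of mitochondrial RNase P. Acat1, at chr9:53580522-53610382 on the minus strand, encodes the thiolase that releases propionyl-CoA and also works on ketone bodies. Pcca, at chr14:122534324-122891100 on the plus strand, and Pccb, at chr9:100982032-101034898 on the minus strand, encode the alpha and beta subunits of propionyl-CoA carboxylase, of which the alpha subunit carries biotin. Mmut, at chr17:40934685-40961988 on the plus strand, encodes methylmalonyl-CoA mutase, a cobalamin enzyme.

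Promoter sequences were compared because several of the 10 genes differed from Control in the same direction, as described further on. RefSeq promoter windows (GRCm38.p6, from 250 bases before to 50 bases after a start) were matched for 8 of the 10 genes, in 10 windows, since Aldh6a1 and Pcca have a pair of windows each. The bases before the annotated gene are shown for the valine hydrolase, the valine dehydrogenase and the biotin subunit, which rose on at least 1 restricted diet in males, and for Aldh6a1, which passed the test on none. All are read 5′ to 3′ on the gene's own strand, at chr1:52844788-52844928 (plus) for Hibch, chr6:52640390-52640550 (minus) for Hibadh, chr14:122534078-122534323 (plus) for Pcca and chr12:84451025-84451274 (minus) for Aldh6a1. Capitals mark a GC box (GGGCGG) or a CCAAT box (CCAAT) on either strand.
Hibch: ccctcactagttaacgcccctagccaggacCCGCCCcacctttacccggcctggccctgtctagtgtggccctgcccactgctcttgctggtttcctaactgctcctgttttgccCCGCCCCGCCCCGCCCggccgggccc
Hibadh: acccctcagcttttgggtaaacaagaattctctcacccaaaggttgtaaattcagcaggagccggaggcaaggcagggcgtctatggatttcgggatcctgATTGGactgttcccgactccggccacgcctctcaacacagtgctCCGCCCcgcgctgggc
Pcca: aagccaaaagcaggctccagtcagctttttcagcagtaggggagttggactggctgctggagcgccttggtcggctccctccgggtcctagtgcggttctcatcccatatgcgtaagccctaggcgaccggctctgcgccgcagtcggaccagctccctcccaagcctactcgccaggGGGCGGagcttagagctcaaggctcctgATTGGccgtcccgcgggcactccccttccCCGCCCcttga
Aldh6a1: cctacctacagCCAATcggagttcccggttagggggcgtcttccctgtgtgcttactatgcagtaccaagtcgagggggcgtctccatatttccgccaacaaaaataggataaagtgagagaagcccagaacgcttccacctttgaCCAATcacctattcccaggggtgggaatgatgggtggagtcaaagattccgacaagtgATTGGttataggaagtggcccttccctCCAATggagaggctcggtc

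The stretch of Hibch held 4 GC boxes, of which 3 adjoin near the start, and no CCAAT box. That of Hibadh held 1 of each, that of Pcca 2 GC boxes and 1 CCAAT box, and that of Aldh6a1 no GC box and 4 CCAAT boxes. The boxes did not separate the genes that passed the edgeR test from those that did not: the stretch before Pccb, which passed on ValR, held neither box, while those of Acadsb, Acad8 and Hsd17b10, which passed on no diet in edgeR (the first and second did in DESeq2), held 3, 1 and 1 GC boxes. Over whole windows of 300 bases, a GC box was found in 6 of the 10 windows and in 35.7% of all 32851 RefSeq promoter windows, and a CCAAT box in 7 of the 10 and in 37.4% of all. The letters of the amino acid response element bound by ATF4 (TGATGNAAT) were in 0 of the 10 windows and in 0.965% of all, and those of an estrogen-related receptor site (TCAAGGTCA) in 0 of the 10 and in 0.423% of all. A site for GABP (CGGAAG) was in 2 of the 10 windows and in 16.9% of all, and one for NRF1 in 2 of the 10 and in 4.6% of all. Each of the letters was searched on both strands, and a match is a description of the sequence only.

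The libraries were clearly brain, although a protocol in the labels names liver. The summed level of 8 pan-neuronal marker genes was at least 4374 CPM (counts scaled to library size after TMM normalization) in every library, and that of 7 liver marker genes at most 10.9 CPM. Total counts per library ranged from 12682687 to 25722333 in males and from 10672599 to 21370973 in females, and libraries of the same group differed beyond counting noise in each of 73 pairs (chi-square per degree of freedom of at least 9.09). The 10 genes held between 138 (Hibch) and 2906 (Aldh6a1) expected counts in a library.

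Male Control libraries stood apart from male restricted libraries in markers of brain region, so diet and these markers cannot be told apart in the male differences from Control below. The summed level of 10 cerebellar markers was 74.9 to 156 CPM in the 4 Control males, 1446 to 3766 CPM in IleR, 294 to 1547 CPM in LeuR and 1515 to 4584 CPM in ValR. The summed level of 12 forebrain markers was 2105 to 7544 CPM in Control and at most 1426 CPM in any restricted male. Of the 10 brainstem and spinal cord markers, Hoxa2, Hoxa3 and Hoxb5 were at 0 in every Control male, and the summed level was 0.726 to 9.48 CPM in Control and 3.16 to 612 CPM in restricted males. A hindbrain score, the mean log2 CPM of the cerebellar and brainstem markers minus that of the forebrain markers, ran from −8.19 to −5.47 in Control males and from −4.16 to 3.90 in restricted males, without overlap. Summed levels of cell type markers also differed between groups. The summed level of 9 oligodendrocyte markers was 4742 to 9918 CPM in Control, 10550 to 15406 CPM in IleR, without overlap, 6656 to 18511 CPM in LeuR and 9789 to 16811 CPM in ValR, although 0 of the 9 passed the test on any diet in edgeR, with 5, 6 and 4 at an unadjusted p under 0.05. That of the 8 pan-neuronal markers was 5240 to 7131 CPM in Control, 4392 to 5167 CPM in IleR, again without overlap, 4458 to 5520 CPM in LeuR and 4717 to 5618 CPM in ValR. Of 7 microglial markers, 2 fell on IleR, 0 on LeuR and 4 on ValR. Of 7 immediate early genes, 5 fell on IleR, 5 on LeuR and 6 on ValR in males. Over all genes tested 8.67%, 6.33% and 12.4% fell on these diets. The part of any of these marker differences in the values below was not tested other than by the covariate fits given. LeuR 21, at −4.16, was nearest to Control, and the other restricted males lay at −0.32 or above. Females spread widely on every diet, from −8.06 to 2.91, with medians between −6.70 and −5.97.

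On the Control diet, the thiolase Acat1 and the beta subunit of the carboxylase, Pccb, were the most abundant of the 10 transcripts and the valine hydrolase the least, while the alpha subunit, Pcca, was among the lowest. Levels are compared between genes per kilobase of exon. In males the median was 21.1 CPM per kilobase for Acat1 and 19.5 for Pccb, followed by 15.4 for Aldh6a1, 13.3 for Hsd17b10, 11.4 for Mmut and 9.71 for Acadsb. Acad8 at 5.71, Pcca at 5.16, Hibadh at 4.47 and Hibch at 1.90 CPM per kilobase made up the lower end. The ranges over the 4 libraries overlapped between Acat1 and Pccb. They also overlapped between neighbours along the run from Aldh6a1 through Hsd17b10 and Mmut to Acadsb, and along that from Acad8 through Pcca to Hibadh. The order of such neighbours is thus not larger than the spread. Aldh6a1 (14.6 to 18.6 CPM per kilobase) did lie wholly above Mmut (9.36 to 13.1) and Acadsb (9.35 to 11.4), and Hsd17b10 wholly above Acadsb. Hibch lay below every other gene in every Control male, with 1.74 to 2.17 CPM per kilobase.

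**Figure D1:**
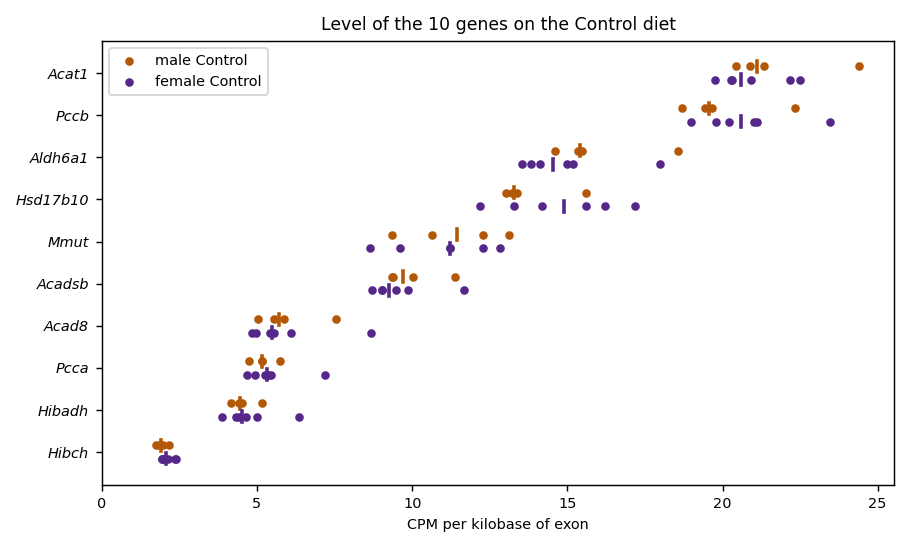
Level of each of the 10 genes in the Control libraries, in CPM per kilobase of exon on the x axis, with 1 point per library (4 male, 6 female) and a vertical bar at the median of each sex. Acat1 and Pccb lie highest in each sex and Hibch lowest, at a median of 1.90 CPM per kilobase in males and 2.07 in females.

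Control females had nearly the same order, with Hsd17b10 at 14.9 and Aldh6a1 at 14.5 CPM per kilobase changing places within overlapping ranges. Among all genes tested, Acat1 was at the 90.7th percentile of mean level per kilobase in males and at the 89th in females, and Hibch at the 50.8th and the 45.7th. Pccb lay above Pcca in every library, by 2.77 to 4.47 times per kilobase in males and by 2.87 to 5.02 times in females. These values depend on the length used: per kilobase of the longest transcript, Aldh6a1 at 25.7 CPM stood first in Control males and Pcca was at 10.4 CPM.

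In males, Hibch, Hibadh, Pcca, Pccb and Mmut passed the test upward on at least 1 diet, and none of the 10 passed downward. On IleR 4 of the 10 were upregulated against Control (Hibch, Hibadh, Pcca and Mmut), on LeuR 1 (Hibch) and on ValR 4 (Hibch, Hibadh, Pcca and Pccb). Acad8 on ValR and Acadsb on IleR just missed the threshold (adjusted p = 0.0519 and 0.0513 in edgeR) and passed in DESeq2. The calls of Pcca and Mmut on IleR and of Pccb on ValR were lost in 9, 9 and 11 of 14 fits that leave out 1 library. Over all genes tested, 6.63% were upregulated on IleR, 3.81% on LeuR and 11.1% on ValR at the same threshold, an edgeR quasi-likelihood p under 0.05 after adjustment over all genes, and 8.67%, 6.33% and 12.4% were downregulated. At an unadjusted p under 0.05 there were 6 of the 10 on each diet, beside 29.6%, 27.0% and 35.2% of all genes. The median log2 fold change of the 10 genes was 0.26 on IleR, 0.20 on LeuR and 0.25 on ValR, beside 0.04, 0.05 and 0.03 over all genes tested. In bulk RNA, a change in the share of a cell type or region and a change in RNA per cell cannot be told apart, and diet and hindbrain score do not overlap between Control and restricted males.

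**Figure D2:**
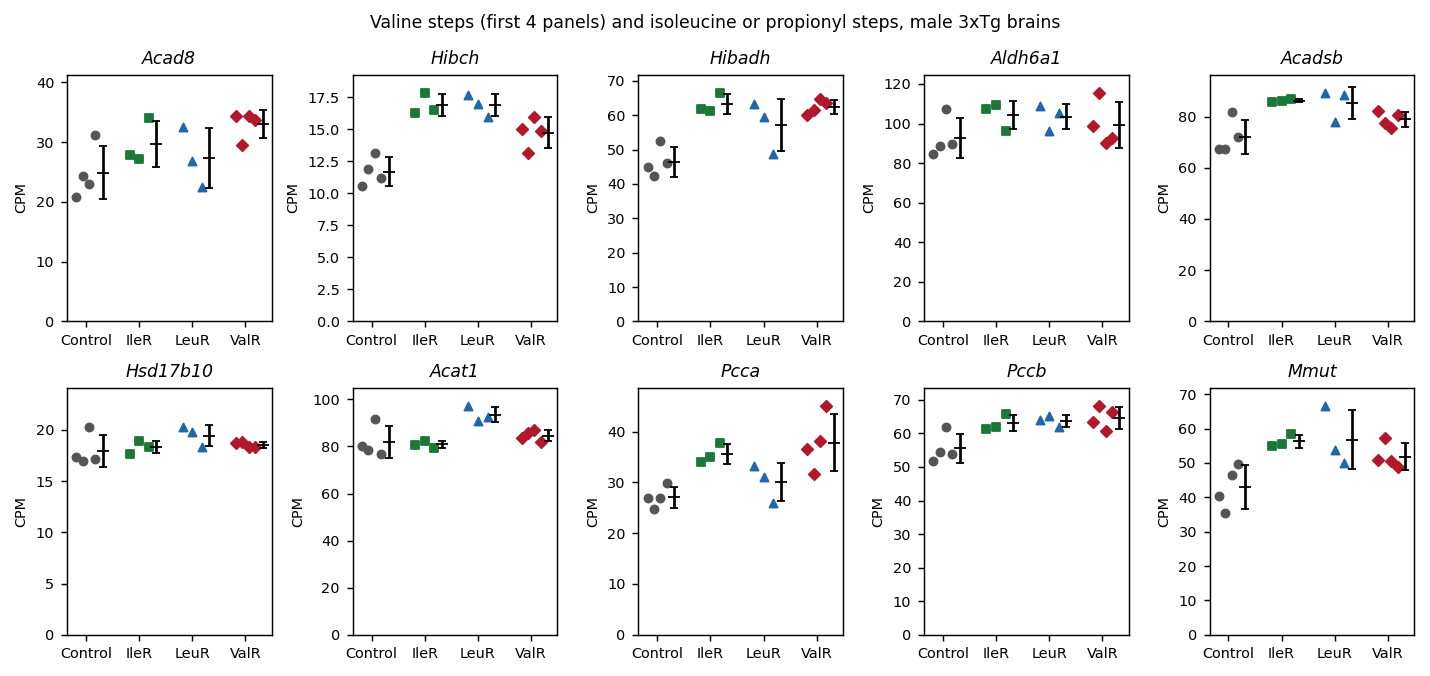
CPM of each gene (y axis, from 0) in every male library by diet, with 1 point per library (4 Control, 3 IleR, 3 LeuR and 4 ValR) and the mean ± SD in black beside the points. Every IleR and LeuR library lies above every Control library for Hibch, while the 4 diets overlap for Hsd17b10.

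Hibch had the largest relative difference from Control of the 4 valine steps on IleR and LeuR. Its level was 10.6, 11.2, 11.9 and 13.2 CPM in Control 1, 5, 3 and 4, 16.3, 16.5 and 17.9 CPM in IleR 13, 17 and 14, and 16.0, 17.0 and 17.7 CPM in LeuR 21, 20 and 19. ValR 9, 12, 7 and 10 had 13.1, 14.8, 15.0 and 16.0 CPM. Every IleR and LeuR library thus lay above every Control library, while ValR 9 fell just inside the Control range. The rise was 1.44-fold on IleR (log2 fold change 0.53 ± 0.11 SE, adjusted p = 0.00631 in edgeR), 1.44-fold on LeuR (0.53 ± 0.11, adjusted p = 0.0125) and 1.26-fold on ValR (0.33 ± 0.10, adjusted p = 0.0319). The call on LeuR was lost without LeuR 19 (adjusted p = 0.062) and in a fit of LeuR and Control alone (adjusted p = 0.0972), and that on ValR without any one of Control 1, 3 or 5 or ValR 7, 10 or 12 (adjusted p = 0.0604 to 0.0946), without a filter (adjusted p = 0.0612) and in a fit of ValR and Control alone (adjusted p = 0.0735). The call on IleR held in all 14 fits that leave out 1 male library.

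Hibadh, the next enzyme, rose on IleR and ValR. Control 3, 1, 5 and 4 had 42.4, 44.9, 46.0 and 52.4 CPM, IleR 14, 13 and 17 had 61.3, 61.9 and 66.5 CPM, and ValR 7, 9, 12 and 10 had 60.1, 61.5, 63.6 and 64.7 CPM. All 7 of these restricted libraries were above all 4 Control libraries. The log2 fold change was 0.45 ± 0.10 SE on IleR (adjusted p = 0.00813 in edgeR) and 0.43 ± 0.09 on ValR (adjusted p = 0.00421). The call on IleR was lost without IleR 17 (adjusted p = 0.0552), and that on ValR held whichever library was left out. On LeuR the libraries 21, 20 and 19 had 48.8, 59.6 and 63.4 CPM, with LeuR 21 inside the Control range, and the log2 fold change of 0.30 ± 0.10 missed the threshold (adjusted p = 0.0648) and passed it without Control 4 (adjusted p = 0.0204) or without LeuR 21 (adjusted p = 0.0113), in DESeq2 (adjusted p = 0.0305), and in edgeR with library totals only or the stricter filter (adjusted p = 0.0434 and 0.0483).

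Acad8 and Aldh6a1, the enzymes that open and close the valine branch, passed the test on no diet in edgeR. Acad8 was 20.9 to 31.2 CPM in Control, 27.1 to 34.1 CPM in IleR, 22.5 to 32.6 CPM in LeuR and 29.5 to 34.4 CPM in ValR, so each restricted group overlapped Control, in which Control 5 was the highest. Its log2 fold change on ValR was 0.41 ± 0.14 SE, just short of the threshold (adjusted p = 0.0519 in edgeR), and it passed without Control 5, ValR 9, LeuR 19 or LeuR 21 (adjusted p = 0.0151 to 0.0463). It also passed on ValR in DESeq2 (adjusted p = 0.0348), with library totals only, with the stricter filter and in a fit of ValR and Control alone (adjusted p = 0.0225, 0.0398 and 0.0461 in edgeR). Aldh6a1 was 84.5 to 107 CPM in Control and 90.1 to 115 CPM in the restricted males, with log2 fold changes of 0.10 to 0.17. Of the exon bases of Aldh6a1, 18.6% lie over Bbof1 on the opposite strand, and the strand setting used for counting is not given in the sources used here. Bbof1 held 2713 counts in total over all libraries. Opposite-strand genes also lie over 4.63% of the exon bases of Pcca (Ggact, 13073 counts in total) and 2.51% of those of Mmut (Cenpq, 2283 counts in total).

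Of the isoleucine steps proper, Acadsb, Hsd17b10 and Acat1, none passed the test on any diet in edgeR, while DESeq2 passed Acadsb on IleR and LeuR (adjusted p = 0.0216 and 0.0311) and Acat1 on LeuR (adjusted p = 0.0484). Acadsb was 67.1, 67.4, 72.0 and 81.6 CPM in Control 3, 1, 5 and 4 and 85.7, 86.0 and 86.9 CPM in IleR 13, 14 and 17, and these IleR libraries lay above every Control library. Its log2 fold change on IleR, the diet low in the amino acid that it degrades, was 0.26 ± 0.08 SE and just missed the threshold (adjusted p = 0.0513 in edgeR). In edgeR it passed on IleR without Control 4 or LeuR 21, with library totals only or with the stricter filter on low counts, and on LeuR without Control 4, as did Acat1. Hsd17b10 was 16.9 to 20.2 CPM in Control and 17.7 to 20.2 CPM over all restricted males, and its log2 fold changes were 0.03, 0.12 and 0.05 on IleR, LeuR and ValR. Acat1 was 76.8 to 91.7 CPM in Control, 79.4 to 82.3 CPM in IleR, 90.8 to 97.1 CPM in LeuR and 81.8 to 87.1 CPM in ValR. The 95% interval of its log2 fold change was −0.18 to 0.14 on IleR, 0.03 to 0.35 on LeuR (log2 fold change 0.19, adjusted p = 0.112 in edgeR) and −0.10 to 0.20 on ValR.

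The carboxylase that receives propionyl-CoA from both routes rose in its biotin subunit. Pcca was 24.7, 26.9, 26.9 and 29.8 CPM in Control 3, 1, 4 and 5, 34.1, 35.0 and 37.8 CPM in IleR 13, 14 and 17, and 31.6, 36.6, 38.2 and 45.0 CPM in ValR 9, 7, 10 and 12. Neither group overlapped Control. The rise was 1.31-fold on IleR (log2 fold change 0.39 ± 0.12 SE, adjusted p = 0.0434 in edgeR) and 1.40-fold on ValR (0.48 ± 0.11, adjusted p = 0.00779). On LeuR, with 26.0, 31.0 and 33.3 CPM in LeuR 21, 20 and 19, the log2 fold change was 0.15 ± 0.12 (adjusted p = 0.461). The call on ValR held whichever library was left out, while that on IleR was lost in 9 of 14 such fits (adjusted p = 0.0592 to 0.161), those without Control 1, 3 or 4, IleR 13, 14 or 17, LeuR 20 or ValR 7 or 10, and also without a filter on low counts (adjusted p = 0.0585).

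Pccb, the partner subunit, passed the test on ValR alone, by a smaller margin. It was 51.8, 53.9, 54.5 and 61.9 CPM in Control 1, 5, 3 and 4 and 60.8, 63.3, 66.4 and 68.1 CPM in ValR 10, 7, 12 and 9, where only ValR 10 fell below the highest Control library. The log2 fold change on ValR was 0.22 ± 0.07 SE (adjusted p = 0.0428 in edgeR), and those on IleR and LeuR, 0.18 ± 0.08 and 0.20 ± 0.08, missed the threshold (adjusted p = 0.133 and 0.12), although with library totals only that on IleR passed (adjusted p = 0.047). The call on ValR was lost in 11 of 14 fits that leave out 1 library (adjusted p = 0.0509 to 0.121) and kept without Control 4, ValR 10 or LeuR 21, and without Control 4 the gene passed on IleR and LeuR. It was also lost with RLE normalization, without a filter and in a fit of ValR and Control alone (adjusted p = 0.0554, 0.0809 and 0.103). Within a library, the level of Pccb over that of Pcca per kilobase was 3.39 to 4.32 in Control, 3.27 to 3.39 in IleR, 3.62 to 4.47 in LeuR and 2.77 to 4.05 in ValR, given as a description.

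Mmut, the last step before succinyl-CoA, was the most spread of the propionyl genes in Control males, at 35.4, 40.2, 46.5 and 49.7 CPM in Control 3, 1, 4 and 5. IleR 13, 14 and 17 had 55.0, 55.5 and 58.4 CPM and LeuR 21, 20 and 19 had 49.9, 53.9 and 66.5 CPM, all above every Control library. The log2 fold change was 0.39 ± 0.12 SE on IleR, past the threshold (adjusted p = 0.0474 in edgeR), and 0.40 ± 0.12 on LeuR, short of it (adjusted p = 0.0537). On ValR it was 0.27 ± 0.11 (adjusted p = 0.107), with ValR 12 at 48.7 CPM inside the Control range. The call on IleR was lost in 9 of 14 fits (adjusted p = 0.0631 to 0.164), those without Control 1 or 3, IleR 13, 14 or 17, LeuR 20 or ValR 7, 10 or 12, and also with RLE normalization, without a filter and in a fit of IleR and Control alone (adjusted p = 0.0563, 0.0613 and 0.0759). On LeuR it passed without Control 4, Control 5 or LeuR 21, in DESeq2, with library totals only and with the stricter filter (adjusted p = 0.0249, 0.0379 and 0.0425 in the last 3). Every library lay above every Control library for 5 of the 10 genes on IleR, 2 on LeuR and 2 on ValR, beside 14.8%, 8.21% and 12.7% of all genes tested, and for 0 of the 10 did every library lie below, beside 14.5%, 9.48% and 13.6%.

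The restricted diets were not told apart by these genes. For IleR against LeuR, ValR against IleR and ValR against LeuR in males, 0 of the 10 genes passed the test in edgeR, with 1, 0 and 1 at an unadjusted p under 0.05. The shares of all genes tested that passed were 0.0%, 0.0% and 2.72%, and 11.3%, 2.83% and 23.9% at an unadjusted p under 0.05. The log2 difference of Hibch between ValR and IleR was −0.19 (95% interval −0.43 to 0.04), and that of Pcca between ValR and LeuR was 0.33 (0.07 to 0.59). Without ValR 9 the latter passed the threshold (adjusted p = 0.0489 in edgeR). For IleR against LeuR, the gene at an unadjusted p under 0.05 was the isoleucine step Acat1. Its log2 difference was −0.21 (−0.38 to −0.04, adjusted p = 0.39 in edgeR). Another isoleucine step, Acadsb, differed by 0.02 between IleR and LeuR (−0.18 to 0.21). The valine steps Acad8 and Hibadh differed by 0.16 (−0.17 to 0.48) and −0.02 (−0.23 to 0.19) between ValR and IleR.

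No male call held once a tissue score entered the fit. With the hindbrain score as a covariate, 0 of the 10 genes passed the test on IleR, LeuR or ValR in edgeR, also at an unadjusted p under 0.05, and over all genes 3, 11 and 0 passed, with 1715, 1641 and 1873 at an unadjusted p under 0.05. The median log2 fold change of the 10 genes was then −0.02, 0.01 and −0.12, and the standard errors were 2.07, 1.72 and 2.55 times as large at the median. The log2 fold change of Hibch dropped from 0.53 to 0.23 on IleR (95% interval −0.27 to 0.72) and from 0.53 to 0.29 on LeuR (−0.11 to 0.70), and was at −0.03 on ValR (−0.59 to 0.54). Hibadh was at −0.01 on IleR and −0.12 on ValR. With an astrocyte score, the mean log2 CPM of 11 astrocyte markers, 0 passed on IleR, LeuR and ValR, with 1, 3 and 0 at an unadjusted p under 0.05, and of all 22197 genes 11, 550 and 163 passed, with 3279, 4242 and 3858 at an unadjusted p under 0.05. Hibch then had a log2 fold change of 0.41 on IleR (95% interval 0.08 to 0.73, adjusted p = 0.231 in edgeR), 0.47 on LeuR (0.21 to 0.72, adjusted p = 0.0566) and 0.19 on ValR (−0.15 to 0.53). The median log2 fold change of the 10 genes was 0.14, 0.16 and 0.08, and the standard errors were 1.36, 1.06 and 1.53 times as large at the median. The astrocyte score was 7.35 to 7.70 in Control males and 7.42 to 8.09 in restricted males, while the summed CPM of the same markers was 4043 to 5350 in Control and 3105 to 5000 in restricted males, so the markers did not move as a block. Of those 11 markers 3 rose on IleR, 1 on LeuR and 5 on ValR, and 1 fell on each. Over all genes tested without a covariate, 6.63%, 3.81% and 11.1% rose and 8.67%, 6.33% and 12.4% fell.

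In females the 10 genes did not differ detectably by diet. In each of the 3 comparisons with Control and the 3 between restricted diets, 0 of the 10 passed the test in edgeR, in DESeq2 and in limma voom, and 0.0% of all genes tested passed in edgeR. At an unadjusted p under 0.05 there were 0 on IleR, 1 on LeuR (Pccb) and 0 on ValR among the 10, beside 2.84%, 4.03% and 3.82% of all genes tested. Between restricted diets there was 1, again Pccb, in IleR against LeuR, and 0 in the other pairs, beside 6.15% (IleR against LeuR), 4.16% (ValR against IleR) and 4.98% (ValR against LeuR) of all genes. The median log2 fold change of the 10 genes was −0.01 on IleR, 0.08 on LeuR and 0.05 on ValR. For 0 of the 10 genes on any diet did every restricted library lie above, or below, every Control library, where the shares over all genes were 0.0541% to 0.143%, so this count is that of the background.

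Hibch in females had a lowest, median and highest level of 11.8, 12.5 and 14.5 CPM on Control, 10.9, 13.1 and 15.7 CPM on IleR, 11.3, 13.4 and 15.6 CPM on LeuR and 12.3, 13.3 and 15.3 CPM on ValR. These ranges lie within each other almost wholly. The log2 fold change of Hibch was −0.02 (95% interval −0.23 to 0.19) on IleR, 0.06 (−0.14 to 0.27) on LeuR and 0.07 (−0.13 to 0.28) on ValR. The male estimates of 0.53, 0.53 and 0.33 lie above these intervals. That comparison leaves out the male error and is no test between the sexes, which is given below. Pcca was wider, with 24.4, 27.8 and 37.5 CPM on Control, 23.5, 27.9 and 38.1 CPM on IleR, 24.4, 28.4 and 42.8 CPM on LeuR and 23.1, 29.2 and 36.7 CPM on ValR. Its log2 fold changes were 0.03 (−0.29 to 0.36), 0.14 (−0.18 to 0.45) and 0.04 (−0.27 to 0.35). The male estimates of Pcca on IleR and ValR lay beyond the upper ends, while the male intervals (0.13 to 0.66 and 0.24 to 0.73) overlapped the female ones. The interaction of Pcca with sex passed in 0 of 46 fits on IleR and in 0 of 46 on ValR. Over all 23 females, the coefficient of variation ran from 4.49% for Acat1 and 7.44% for Pccb to 18.5% for Pcca and 21.5% for Acad8.

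**Figure D3:**
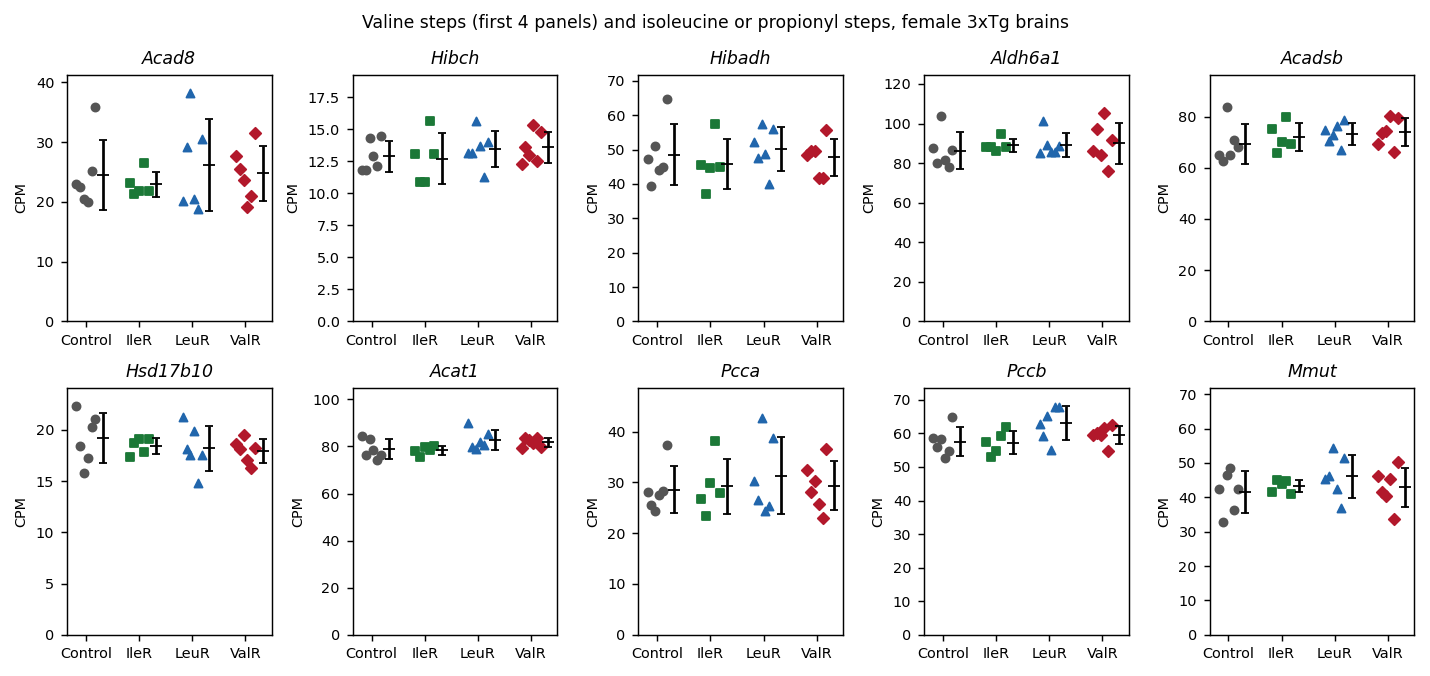
CPM of each gene (y axis, from 0) in every female library by diet, with 1 point per library (6 Control, 5 IleR, 6 LeuR and 6 ValR) and the mean ± SD in black beside the points. The diets overlap for every gene, and Acad8 and Pcca show single high libraries within a diet, such as Control 30.

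**Figure D4:**
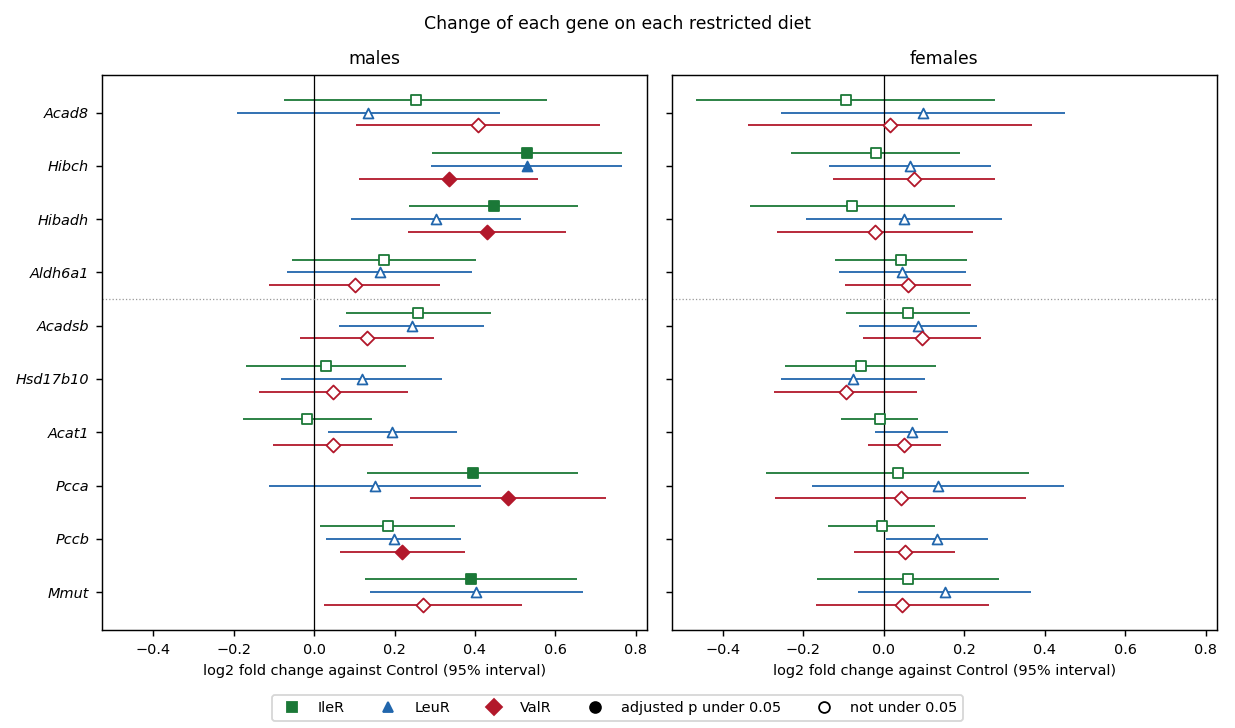
Log2 fold change against Control on the x axis, with its 95% interval, for each gene and restricted diet in males (left) and females (right). Filled symbols passed the adjusted threshold of 0.05: they are Hibch on all 3 diets, Hibadh on IleR and ValR, Pcca on IleR and ValR, Pccb on ValR and Mmut on IleR, all in males.

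The difference between the sexes was tested itself in 1 model of all 37 libraries. For the interaction of diet and sex, 0 of the 10 genes passed on IleR, LeuR or ValR in edgeR, beside 0.0979%, 0.00445% and 4.25% of all genes tested, and 2, 1 and 1 were at an unadjusted p under 0.05, beside 19.1%, 13.0% and 26.0% of all genes, so these counts are near or below the background. The largest was Hibch on IleR, whose change in males exceeded that in females by 0.54 ± 0.15 SE on the log2 scale (adjusted p = 0.077 in edgeR). In DESeq2 this interaction passed, as it did in edgeR without male Control 4, without female IleR 41 or without female LeuR 45 (adjusted p = 0.0292 to 0.0424). Hibadh on IleR differed by 0.52 ± 0.18 (adjusted p = 0.125) and passed without female IleR 41 (adjusted p = 0.0415). Hibch on LeuR differed by 0.48 ± 0.15 (adjusted p = 0.157) and passed without male Control 4 (adjusted p = 0.0492) and with the astrocyte score as a covariate (adjusted p = 0.0371), and Hibadh on ValR by 0.42 ± 0.17 (adjusted p = 0.111) and passed without female ValR 36 (adjusted p = 0.0473). With the hindbrain score as a covariate, 0 of the 10 genes passed on any diet, beside 0, 141 and 0 of 22465 genes on IleR, LeuR and ValR. The highest interaction among the 10 genes was then 0.27, 0.32 and 0.05, and 7, 6 and 1 of the 10 were above 0.

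Within the diets, part of the 10 genes varied with the hindbrain score of the female libraries. On the hindbrain score, fitted in females with diet in the model, 5 of the 10 genes had a positive slope past the threshold (Acad8, Hibch, Hibadh, Pcca and Mmut) and 0 a negative one, beside 21.8% positive and 23.8% negative of all genes tested. Of these, Acad8 had passed on no diet in males, and Pccb, which had passed on ValR in males, did not pass here (adjusted p = 0.0814 in edgeR). Pcca rose by 0.07 log2 per unit of score (0.0734 ± 0.01 SE, adjusted p = 3.4e-06 in edgeR) and Acad8 likewise (0.0749 ± 0.0133 SE, adjusted p = 7.67e-05). Hibadh rose by 0.05 (adjusted p = 0.000359), and Hibch and Mmut by 0.03 each (adjusted p = 0.0237 and 0.0327). The slopes of Aldh6a1, Acadsb, Hsd17b10, Acat1 and Pccb, between −0.0055 and 0.016, did not pass. Hibch lost its call without IleR 41 or LeuR 45 (adjusted p = 0.07 and 0.0834), and Mmut without Control 26, ValR 36 or LeuR 45 (adjusted p = 0.0533, 0.0828 and 0.123). Acadsb gained one without LeuR 45 and with library totals only, and Pccb without Control 25, IleR 40 or LeuR 47, with library totals only and with the stricter filter.

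The 5 female libraries with the highest hindbrain scores carried the 5 highest levels of Pcca. LeuR 45, at a score of 2.91, had 42.8 CPM, and ValR 36, Control 30, LeuR 48 and IleR 41, at scores of −2.19 to −0.672, had 36.7, 37.5, 38.7 and 38.1 CPM, while the other 18 females had 23.1 to 32.4 CPM. Acad8 was 38.2 CPM in LeuR 45 and 35.9 CPM in Control 30, beside 22.5 CPM in Control 26, which had the lowest score of −8.06. Acat1 was 78.8 CPM in LeuR 45 and 76.2 CPM in Control 26.

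**Figure D5:**
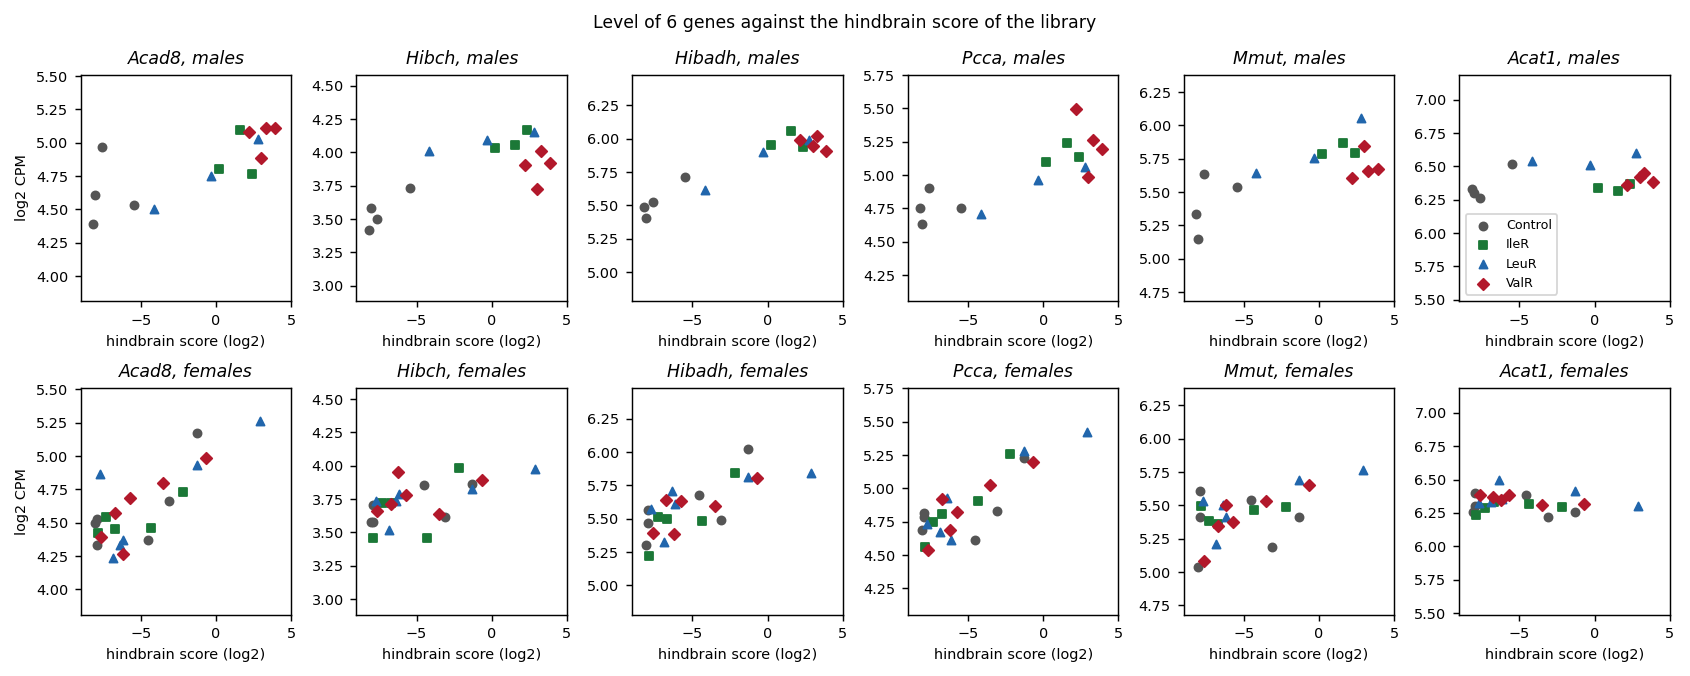
Log2 CPM of 6 of the genes (y axis) against the hindbrain score of the library (x axis), for 14 males (top) and 23 females (bottom), with 1 symbol per library coloured by diet. Male Control libraries sit at the left, from −8.19 to −5.47, and restricted males at the right, while female diets mix along the axis. Pcca and Acad8 climb with the score in females and Acat1 does not.

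On the astrocyte score, 6 of the 10 genes had a positive slope past the threshold in females, the 5 above and Acadsb, and 0 a negative one, beside 21.8% positive and 22.0% negative of all genes tested. The slope was 0.89 ± 0.17 SE log2 per unit for Acad8 (adjusted p = 0.00019 in edgeR), 0.80 ± 0.15 for Pcca (adjusted p = 0.000152) and 0.63 ± 0.11 for Hibadh (adjusted p = 0.000104). The slopes of Hsd17b10 (−0.01) and Acat1 (−0.05) were flat, with 95% intervals of −0.28 to 0.27 and −0.18 to 0.08. The pair of scores moved together within diets (r = 0.85 over 23 females, 0.76 over 14 males, as a description over libraries that share both scores), so their slopes are not separate evidence. Aldh6a1 passed without Control 25, Pccb without Control 25 or LeuR 47, and both with library totals only. In males 0 of the 10 slopes passed on either score in edgeR, with 2 and 1 at an unadjusted p under 0.05, beside 16.3% and 16.4% of all genes on the hindbrain and the astrocyte score, and 0.189% of all genes had a positive and 0.712% a negative slope past the threshold on the hindbrain score and 0.0135% and 0.0225% on the astrocyte score. DESeq2 passed Hibadh on the hindbrain score in males.

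The genes also split in how they varied together. Over the 23 females, on log2 CPM after subtracting diet means, Pearson's r was 0.83 between Hibadh and Pcca, 0.82 between Acad8 and Pcca, 0.73 between Acad8 and Hibadh and 0.71 between Hibch and Hibadh. Thus Pcca varied more closely with the valine steps Hibadh and Acad8 than with its own partner Pccb (0.59). The median over pairs was 0.48 for the 6 pairs within the valine steps, 0.20 for the 15 pairs within the isoleucine or propionyl steps and 0.42 for the 24 mixed pairs. In males, with 14 libraries, these medians were 0.21, 0.45 and 0.54, so that order was not kept. The libraries share tissue composition and depth, and the values are descriptions.

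Among 11021 genes averaging 3 or more log2 CPM in females, those most like each gene in females differed between the genes. Plxnb2 and Rgs8 were most like Pcca (r = 0.95 and 0.94, with 0.51 and 0.69 in males), Foxn2 and Itpk1 most like Acad8 (0.94 and 0.93, with 0.49 and 0.54 in males), and Smad5 and Dpy19l4 most like Hibadh (0.92 and 0.92, with 0.07 and 0.41 in males). Sclt1 and Lrch1 were most like Hibch (0.86 and 0.86, with 0.49 and 0.49 in males), Tmco1 and Nebl most like Mmut (0.83 and 0.81), and Mpp5 and Wsb1 most like Acadsb (0.87 and 0.86). Tcta and Bckdha, of which the latter encodes the E1 alpha subunit of the ketoacid dehydrogenase, were most like Pccb (0.85 and 0.81, with 0.25 and 0.59 in males). Srsf9 and Dvl2 were most like Hsd17b10 in females (0.85 and 0.74) and ran the other way in males (−0.48 and −0.45). Aldh6a1 was closest to Padi2 and Cachd1 (0.77 and 0.76), and Acat1 to Rgs10 and Nipal3 (0.82 and 0.82).

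The genes around these branches were counted in lists grouped by function. In males they were compared between the same libraries, which differ in brain region markers, and the part of that difference in their values was not tested. Of 6 leucine-branch genes, 3 rose on IleR in males, 1 on LeuR and 4 on ValR, and none fell. Mccc1 and Mccc2, the subunits of the biotin enzyme of leucine breakdown, had log2 fold changes of 0.50 ± 0.10 and 0.48 ± 0.11 SE on IleR (adjusted p = 0.00633 and 0.0117 in edgeR) and 0.48 ± 0.10 and 0.49 ± 0.11 on ValR (adjusted p = 0.00289 and 0.00449). Auh, the hydratase of that branch, rose by 0.38 ± 0.09 on IleR and 0.42 ± 0.09 on ValR. Hlcs, which attaches biotin to these carboxylases and to Pcca, was the 1 of 3 biotin-handling genes that rose on each diet, by 0.69, 0.54 and 0.80 on IleR, LeuR and ValR, and its change on ValR exceeded that in females by 0.94 ± 0.25 (adjusted p = 0.0358 for the interaction in edgeR). It was the 1 of the 50 genes in these lists that passed this interaction, beside 4.25% of all genes tested.

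Of 8 shared first steps, Ppm1k, the phosphatase that activates the ketoacid dehydrogenase, fell by 0.55 on IleR, 0.62 on LeuR and 0.47 on ValR, while Bckdha rose on LeuR (0.29) and ValR (0.37) and the kinase Bckdk on ValR (0.21). Of 8 hydratases, dehydrogenases and thiolases that serve these routes and fat oxidation, 3, 2 and 3 rose, with Hadha at 0.36, 0.45 and 0.37 and Hadhb at 0.51, 0.51 and 0.44. Of 9 genes of methylmalonyl and cobalamin handling, 0 passed on IleR and LeuR and Mmab fell on ValR (−0.54). Of 16 citric acid cycle genes, 1, 0 and 5 rose, beside 6.63%, 3.81% and 11.1% of all genes, so that the counts on IleR and LeuR are at or below the background, with Sdhc at 0.30 on IleR and 0.33 on ValR. In females 0 of the 50 genes in these lists passed on any diet in edgeR, with 0, 2 and 0 at an unadjusted p under 0.05 on IleR, LeuR and ValR, whereas in males 8, 5 and 15 rose and 1, 1 and 2 fell, beside the shares over all genes given for the 10 genes, 6.63%, 3.81% and 11.1% up and 8.67%, 6.33% and 12.4% down. Within female diets, the slope on the hindbrain score passed the threshold upward for 24 and downward for 6 of the 50 genes, beside 21.8% and 23.8% of all genes. Upward were 6 of 6 leucine-branch genes and 3 of 3 biotin genes, Hlcs among them (0.09), and Ppm1k (−0.06) was downward.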

How the data were processed

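RNA was extracted from brains of 3xTg mice and sequenced. The authors deposited expected counts per Ensembl gene, 1 table per sex, from reads aligned to GRCm38. RSEM appears in the tables' naming, and the aligner, its settings and the strand used in counting are not given in the sources used here. In a library 3.69% to 4.93% of the values were not whole. The study's methods say that clear outliers were removed after a principal component analysis. Deposited tables of the authors' own log2 fold changes and p-values were not used. The submitters' processing notes also name R 3.4.3, edgeR and limma.

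Expected counts were rounded to whole numbers. A gene was kept if all libraries of some group held 1 count or more of it (22197 in males, 20344 in females and 22465 in the joint fit). Counts were normalized by TMM, and fitted with edgeR 4.0.16 (glmQLFit and glmQLFTest, R 4.3.3), with all diets of a sex in 1 fit, Benjamini-Hochberg adjustment over all genes and a threshold of 0.05. Diet by sex was tested in 1 fit of all libraries. CPM are on TMM library sizes, and scores use log2 CPM with a prior count of 2. DESeq2 1.42.0, limma 3.58.1 (voom), other normalizations and filters, marker scores as covariates, fits of 2 groups and fits without each library were alternatives. The fits were also run on simulated counts with changes larger than those of the 10 genes and no difference in brain region. Detection at the sizes reported here was not tested by them. None of the 10 genes had another annotated transcript matching it over 300 bases at 90% identity. Intervals are 95%. The study counts the replicates of these groups as animals, while the labels do not say which library came from which animal.

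The 10 genes, the lists of other pathway genes and the marker lists were chosen with earlier results of these data known. All 10 genes are named, and from each other list at most 3 genes per comparison, those of smallest adjusted p among the genes past the threshold. The genes most alike were the 2 of highest r in females. Libraries without a mapped column were not analysed here. Promoter sequences are from RefSeq (GRCm38.p6).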

Additional observations from a re-analysis of the deposited data

Results flagged for a closer look

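Within groups of 4 to 6 libraries, 7 of 60 gene and group combinations had 1 library far from the others by Dixon's ratio, where chance gives about 1 in 20. Among males, Acad8 was low in ValR 9, at 29.5 CPM beside 33.8 to 34.4 CPM in the other ValR males. Hsd17b10 was high in Control 4, at 20.2 CPM beside 16.9 to 17.4 CPM in the other Control males, and Control 4 also had the highest hindbrain score of that group. Among females, Control 30 was high for Acad8, at 35.9 CPM beside 20.0 to 25.2 CPM, and for Pcca, at 37.5 CPM beside 24.4 to 28.4 CPM, and had the highest hindbrain score of the Control females. Aldh6a1 was high in Control 27, at 104 CPM beside 78.3 to 87.7 CPM, in IleR 41, at 94.5 CPM beside 85.9 to 88.3 CPM, and in LeuR 44, at 101 CPM beside 85.2 to 89.2 CPM. Aldh6a1 passed the test on no diet in either sex.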

How the results depend on the processing

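No paired analysis was possible because each library carries its own number and no number is shared between diets. The counts of the 10 genes passing the test in males depended on the processing. Without a filter on low counts they were 2 on IleR and 2 on ValR, and under the other normalizations, tools, filters and the fit of 2 groups 3 to 6 on IleR and 3 to 5 on ValR. With the hindbrain or the astrocyte score as a covariate they were 0 on IleR, LeuR and ValR, and with the hindbrain score, among the genes that had passed, Hibadh (−0.0127) and Mmut (−0.11) on IleR and Hibch (−0.025) and Hibadh (−0.12) on ValR turned negative, with wide errors. Of all 10 genes, 4, 6 and 2 were then above 0. On LeuR the count was 5 with DESeq2, 3 with library totals only, 3 with the stricter filter and 0 in a fit of LeuR and Control alone. Leaving out 1 library gave 1 to 5 on IleR (1 without IleR 17), 0 to 6 on LeuR (0 without LeuR 19, 6 without Control 4), 2 to 5 on ValR and 0 to 1 for ValR against LeuR. DESeq2 gave 1 for the male hindbrain slope and 1 for the IleR by sex interaction. The LeuR by sex interaction gave 1 with the astrocyte score as a covariate. Leaving out 1 library gave 0 to 2, 0 to 1 and 0 to 1 for the IleR, LeuR and ValR interactions. No female diet comparison passed for any of the 10 genes under any alternative run. The cause of these changes was not tested.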
